A study of Homo sapiens with 16 samples.

Results

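The 242 regions described here were open chromatin sites of Rh30 cells whose accessibility was flat at 2 and 4 h after degradation of the PAX3-FOXO1 fusion protein was triggered and higher at 24 h. They are called late gains below. They were 242 of 56949 regions in the first of 2 ATAC-seq experiments, named 6086 in the labels. That experiment had 8 libraries, 2 each for cells in DMSO and for cells given 500 nM dTAG47 for 2, 4 or 24 h. A separate experiment, 6211, had its own 8 libraries, 2 each for DMSO and for 0.5, 1 and 2 h of 500 nM dTAG47, counted over 40844 regions of its own. All cells of both experiments, the DMSO cells included, carried PAX3-FOXO1 with an FKBP tag. The labels name neither the number of clones nor the duration of the DMSO treatment, nor whether the libraries of a group are from different cultures. The fusion protein itself is not measured by this assay, so the extent of its loss was not analysed here.

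PAX3-FOXO1 joins the DNA-binding domains of the muscle-lineage factor PAX3 to the activation domain of FOXO1 and is the driver of fusion-positive alveolar rhabdomyosarcoma, a tumour with features of skeletal muscle precursors, from which the Rh30 line came. It binds distal enhancers together with other muscle transcription factors and keeps many of them active. dTAG47 is a small molecule that binds the FKBP tag on one side and an E3 ubiquitin ligase on the other, so that the tagged protein is destroyed. In ATAC-seq a transposase inserts adapters into DNA that is not covered by nucleosomes, and the reads that fall in a region rise with how accessible it is across the cell population. In such bulk libraries, more cells with an open site and a wider opening of the site per cell cannot be told apart.

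Levels are given as CPM, the reads in a region per 1000000 reads of its library in all regions of the table. The change at each time is the log2 ratio of the mean CPM of the 2 treated libraries to that of the 2 DMSO libraries, after adding 0.5 to both. A late gain had a mean of at least 5 CPM over the 8 libraries, a change within 0.15 of 0 at 2 h and within 0.2 of 0 at 4 h, and a change of at least 0.6 at 24 h. Of the 48035 regions with at least 5 CPM, 32322 were flat at 2 and 4 h by these limits, and 242 of those passed the limit at 24 h. Regions with a change of at least 0.6 at 24 h numbered 911 in all. Since the values of experiment 6086 chose the late gains, they are given from that experiment as a description without a test. The 8 libraries held 18038062 to 31308682 reads in regions, the fewest in DMSO library A and the most in 24 h library B. Coordinates are those of the deposited tables, taken as hg19. Genes, promoters and sequence at these positions were not analysed here, because no annotation or genome of that build was used.

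Late gains were mostly low to moderate sites, higher at 24 h by the rule. The median over the 242 regions was 7.12 and 6.70 CPM in DMSO libraries A and B, 6.97 and 7.11 CPM at 2 h, 7.48 and 7.14 CPM at 4 h, and 11.3 and 11.5 CPM at 24 h. The 6 earlier medians lay between 6.70 and 7.48 CPM, and both 24 h medians stood apart from them. Mean levels of single regions spanned 7.0 to 93.3 CPM at 24 h, against 3.72 to 57.6 CPM in DMSO. In reads, a late gain had a median of 702 over both 24 h libraries, against 298.5 over both DMSO libraries, and no region had fewer than 68 reads in any library. The libraries of a pair lay close together, with a median coefficient of variation over regions of 4.13% for the 24 h pair and 6.70% for the DMSO pair.

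**Figure D1:**
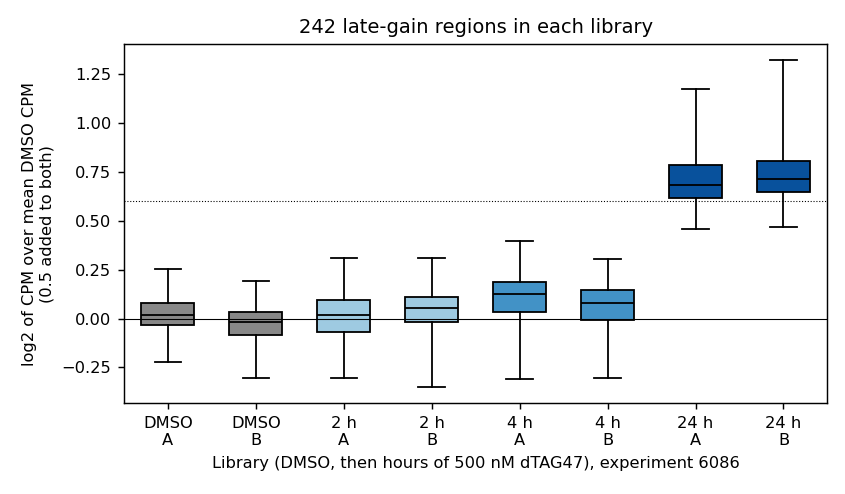
Log2 ratio of the CPM in each library to the mean DMSO CPM (0.5 added to both) over the 242 late gains, in the 8 libraries of experiment 6086 by time. Boxes show quartiles and medians, whiskers the lowest and highest region, and the dotted line the limit of 0.6. The medians are 0.68 and 0.72 in the 24 h libraries and at most 0.12 in the other 6.

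The range of the change at 24 h was narrow, with its lower end set by the rule. The log2 change at 24 h ranged from 0.60 to 1.20 with a median of 0.70. As a ratio without the log, after the same addition to both means, this was 1.52- to 2.30-fold with a median of 1.62-fold. The log2 change was under 0.7 in 123 regions, from 0.7 to below 1 in 109 and at least 1 in 10. In all 242 regions both 24 h libraries lay above all 6 others, which held for 18.7% of the 48035 regions with at least 5 CPM. The lower 24 h library exceeded the highest of the other 6 by at least 1.15-fold, with a median of 1.42-fold. edgeR's quasi-likelihood test called all 242 higher at 24 h at an adjusted p under 0.05, against 13.6% of 56945 tested regions. In the authors' deposited table all 242 were likewise higher at an adjusted p under 0.05, against 7.37% of its 56949 regions, with log2 changes of 0.60 to 1.24. The rule used this contrast, so nothing is read from these 3 counts.

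Within the limits that the rule set at 2 and 4 h, the values leaned upward with time. Changes at 2 h had a median of 0.04 and were above 0 in 156 of the 242 regions. Those at 4 h had a median of 0.11, were above 0 in 208 and reached at least 0.1 in 132. The other 31499 regions flat at 2 and 4 h had medians of 0.01 at 2 h and 0.02 at 4 h. Neither difference was tested, because the rule limits these values. The changes at 2, 4 and 24 h also share the same DMSO mean, so a low DMSO reading raises them together. Choosing on a high 24 h change favours such readings. How much of the lean this gives was not tested. Regions chosen on the A or the B libraries, described below, were also read against the unused DMSO library. There the 4 h medians were 0.15 and 0.14 and the 2 h medians 0.12 and 0.02, against 0.02 over the flat regions.

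The largest step was at chr20:4853939-4854532, a site of 594 bp. It had 8.76 and 7.17 CPM in DMSO, 7.49 and 7.24 CPM at 2 h, 8.96 and 9.05 CPM at 4 h, and 17.8 and 20.1 CPM at 24 h, a log2 change of 1.20 at 24 h. The 24 h libraries lay above the other 6, and among those the 4 h pair lay just above the DMSO and 2 h libraries, which overlapped. At chr2:26948330-26948721 the 24 h libraries differed most among the 10 largest steps, with 13.2 and 17.0 CPM at 24 h, against 6.87 and 6.16 CPM in DMSO, and its log2 change was 1.15. The third, chr16:19854662-19854987, was a weak site with 4.38 and 3.06 CPM in DMSO, 3.52 and 4.40 CPM at 2 h, 4.44 and 4.15 CPM at 4 h and 9.01 and 8.21 CPM at 24 h. Its log2 change of 1.11 rests on 271 and 257 reads at 24 h, against 79 and 79 reads in DMSO.

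Larger sites also made such steps. chr2:39957342-39958108, 767 bp wide, had 15.4 and 16.2 CPM in DMSO, 18.2 and 16.2 CPM at 2 h, 17.4 and 16.7 CPM at 4 h, and 34.1 and 34.5 CPM at 24 h, a log2 change of 1.10. chr12:109967793-109968415, 623 bp wide, had 12.2 and 13.6 CPM in DMSO, 13.8 and 14.0 CPM at 2 h, 15.5 and 14.3 CPM at 4 h and 28.0 and 27.2 CPM at 24 h, a log2 change of 1.07. In both, the 24 h libraries agreed closely and lay far above the other 6. chr18:77684888-77685811, 924 bp wide, reached 29.9 and 28.1 CPM at 24 h, against 14.7 and 13.7 CPM in DMSO. The remaining 4 of the 10 largest steps, chr4:58059432-58059801, chr15:93212770-93212998, chr18:47372332-47372601 and chr10:31966265-31966606, were narrower and weaker. They had 7.78 to 10.9 CPM in the 24 h libraries, against 3.60 to 5.82 CPM in the DMSO libraries, with log2 changes of 1.00 to 1.02.

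**Figure D2:**
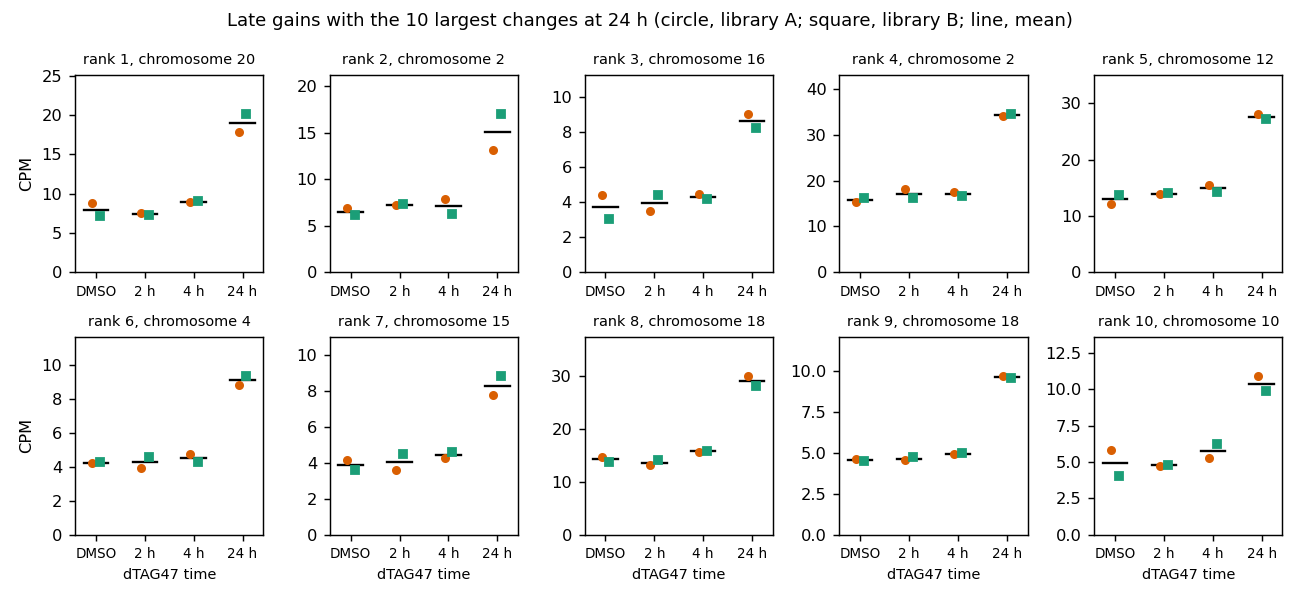
CPM of the 10 late gains with the highest log2 change at 24 h, by time of dTAG47 in experiment 6086, 1 panel a region in order of the change. Circles are library A, squares library B and lines the mean of 2 libraries, each axis starts at 0, and in every panel both 24 h points lie above the other 6.

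The strongest late gain was chr20:35860335-35861163, with 59.4 and 55.8 CPM in DMSO, 54.5 and 57.3 CPM at 2 h, 60.3 and 55.5 CPM at 4 h and 91.6 and 94.9 CPM at 24 h. Its log2 change was 0.69, so it added more CPM at 24 h than any site above while its ratio was near the median. chr2:42981130-42982014 followed with 64.5 and 68.5 CPM at 24 h, against 38.5 and 38.5 CPM in DMSO, a log2 change of 0.78. The 3 widest late gains were chr17:17288572-17289774, chr2:1735175-1736224 and chr7:25765738-25766777, at 1203, 1050 and 1040 bp. chr17:17288572-17289774 had 63.0 and 63.3 CPM at 24 h, against 35.4 and 35.0 CPM in DMSO, a log2 change of 0.84. chr7:25765738-25766777 had 63.6 and 63.9 CPM at 24 h, against 37.5 and 37.0 CPM in DMSO, and chr2:1735175-1736224 had 28.6 and 29.3 CPM at 24 h, against 17.4 and 17.0 CPM in DMSO. In these sites the 2 libraries of a pair differed by much less than the step. Such strong sites were the exception, since 20 late gains had a mean of at least 20 CPM over the 8 libraries and 164 had less than 10 CPM.

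At the limit of 0.6 the late gains graded into regions outside it. The 3 just inside were chr5:123934828-123935578, chr1:156091295-156091581 and chr20:32418237-32418576, with log2 changes of 0.6011, 0.6014 and 0.6016. Just outside were chr17:79065068-79065311, chr20:46356846-46357188 and chr4:169185936-169186776, with 0.5995, 0.5974 and 0.5965. Inside, chr1:156091295-156091581 had 10.4 and 10.5 CPM at 24 h, against 6.87 and 6.59 CPM in DMSO. Outside, chr20:46356846-46357188 had 10.0 and 11.0 CPM at 24 h, against 6.60 and 6.94 CPM in DMSO. These levels overlap, so the limit marks no break.

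Column names mark the 2 libraries of a group as A and B. The rule was applied to the libraries of a single letter, and the step of the regions so chosen was read in those of the other letter. Applied to the 4 A libraries alone, the rule chose 165 regions, 96 of them among the 242. In the 4 B libraries, the 24 h change of these 165 had a median of 0.75 and was above 0 in all 165 and at least 0.6 in 133 (80.6%). Over the 22975 regions flat at 2 and 4 h in the A libraries, the B libraries gave a change above 0 in 54.7% and of at least 0.6 in 1.53%. Chosen on the 4 B libraries, 251 regions, 119 of them among the 242, had a median change of 0.62 in the A libraries, above 0 in all 251 and at least 0.6 in 140 (55.8%). The share with at least 0.6 among the 28325 regions flat in the B libraries was 1.31%. The direction at 24 h was thus the same in every region chosen on the other libraries. The A and B libraries belong to the same experiment, and regions are not replicates. This reading therefore cannot tell the treatment from anything else that the 24 h libraries shared. The flatness at 2 and 4 h carried over less exactly. Read in the unused libraries, the 4 h change had a median of 0.15 for the regions chosen on A and 0.14 for those chosen on B, against 0.02 over the flat regions of either choice, and in the choosing libraries it was 0.12 and 0.09. The 2 h change had a median of 0.12 in the unused libraries and 0.01 in the choosing ones for the regions chosen on A, and 0.02 and 0.06 for those chosen on B, against 0.02 over the flat regions of either choice. Regions of the table were defined by the authors, and the sources used here do not give which libraries entered that step.

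**Figure D3:**
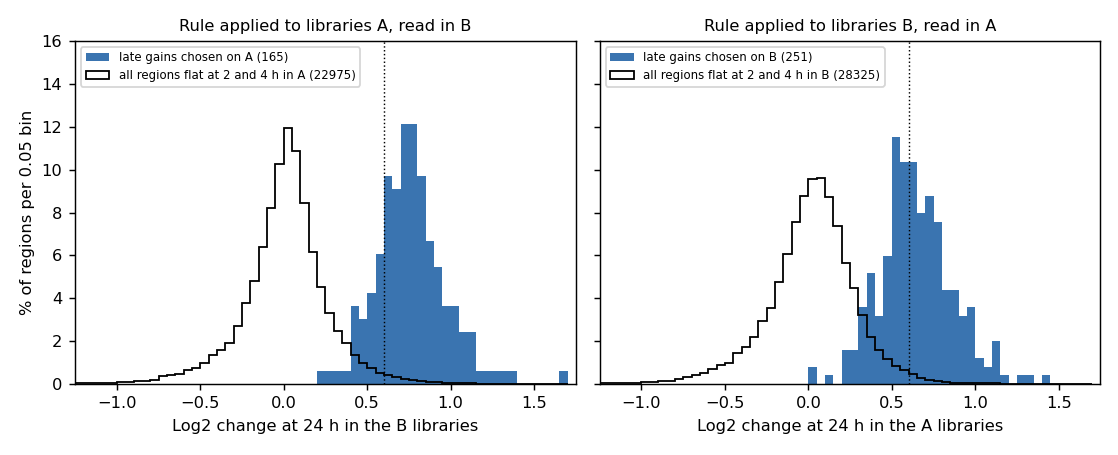
Log2 change at 24 h in the libraries not used to choose the regions, in bins of 0.05, as a percent of each set. Filled bars are regions chosen as late gains on the A libraries (left, read in B) or the B libraries (right, read in A), the outline all regions flat at 2 and 4 h in the choosing libraries, and the dotted line 0.6. Filled bars all lie above 0, with medians of 0.75 and 0.62.

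Late gains were thin in DMSO for their width. They had a median width of 347.5 bp (quartiles 279 and 445 bp), close to the 344 bp of the 149 regions that had already gained at 4 h (log2 change of at least 0.4 at 4 h and 0.6 at 24 h). The 581 late losses, chosen by the same limits at 2 and 4 h with a change of -0.6 or less at 24 h, had 302 bp. The other regions flat at 2 and 4 h had 427 bp. Read density, in CPM per kb of region, separated these sets more. Its median over late gains was 34.1 CPM per kb at 24 h, against 20.1 CPM per kb in DMSO. Gains from 4 h had 32.3 CPM per kb at 24 h, against 17.1 in DMSO. Late losses had the opposite pair, with 20.3 CPM per kb at 24 h, against 34.9 in DMSO. All regions of at least 5 CPM had 34.4 CPM per kb at 24 h, against 34.9 in DMSO. The median density of the late gains was thus near that of all regions at 24 h and below it in DMSO, and the median of the late losses was the reverse. These densities share their values with the rule and the widths come from the authors' region calls, so the differences are descriptions without a test.

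**Figure D4:**
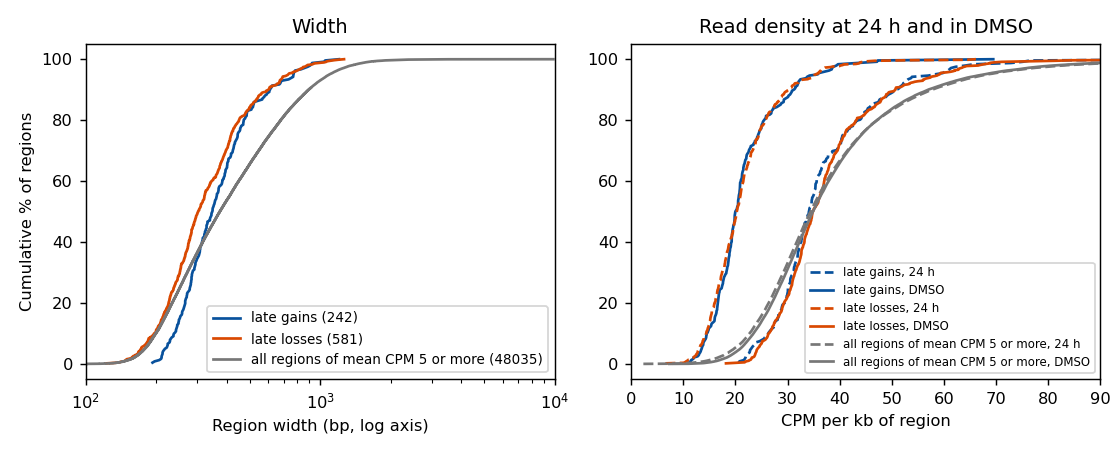
Cumulative percent of regions by width in bp (left, log axis) and by CPM per kb of region (right), for the 242 late gains, the 581 late losses and all 48035 regions of at least 5 CPM. Dashed lines are 24 h and solid lines DMSO. Late gains and late losses trade places between 24 h and DMSO, with median densities of 34.1 against 20.1 and 20.3 against 34.9 CPM per kb.

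Few windows of 1 Mb held more than 1 late gain. Of the 226 windows that held any, 212 held 1, 12 held 2 and 2 held 3. No such count was made for other sets of regions, so the spacing is not read as a trait of the late gains. One of the windows with 3 lay at 44 to 45 Mb of chromosome 1 among 45 regions of at least 5 CPM. The other, at 43 to 44 Mb of chromosome 12, had only 9 such regions. There chr12:43073264-43073750 had 14.1 and 16.7 CPM at 24 h, against 8.54 and 7.52 CPM in DMSO. chr12:43129803-43130125 had 9.97 and 9.39 CPM at 24 h, against 5.21 and 4.38 CPM in DMSO. chr12:43432814-43433252 had 21.8 and 23.4 CPM at 24 h, against 14.2 and 13.9 CPM in DMSO. The log2 changes at these 3 sites were 0.90, 0.94 and 0.67. In 2 places late gains were direct neighbours. chr20:35861917-35862318 lay 0.753 kb from the strongest late gain, with 9.50 and 8.02 CPM at 24 h, against 4.93 and 4.69 CPM in DMSO. chr18:77687231-77688001 lay 1.42 kb from chr18:77684888-77685811, with 45.7 and 48.0 CPM at 24 h, against 29.2 and 30.7 CPM in DMSO.

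Most neighbours of late gains did not share the step. For 130 late gains the nearest region of the table lay within 10 kb and had at least 5 CPM itself. Its log2 change at 24 h had a median of 0.08 and an upper quartile of 0.31 and was above 0 in 84 (64.6%). The median and the share above 0 were 0.15 and 78.0% beside gains from 4 h, -0.11 and 35.9% beside late losses, and 0.02 and 53.3% beside all regions of at least 5 CPM. Another late gain lay within 100 kb of 12 late gains (4.96%), against 3.73% of all regions of at least 5 CPM with a late gain that near. A region with a change of at least 0.6 at 24 h, flat before or not, lay within 100 kb of 44 late gains (18.2%), against 13.1%. By chromosome, the largest numbers were 29 on chromosome 2 (12% of late gains, against 8.34% of regions of at least 5 CPM) and 26 on chromosome 1 (10.7% against 10.9%). Chromosome 19 held 3 (1.24% against 4.25%). None of these shares was tested.

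Experiment 6211 gave a reading of the early times in libraries that the rule did not use. Its libraries held 9934147 to 18275976 reads in regions, and 6211 had no 24 h library, so it shows only whether the late gains were also quiet up to 2 h. Of the 242 late gains, 90 (37.2%) could be matched to a single 6211 region by an overlap of at least 50% of both. The share was 61.3% for all regions of at least 5 CPM, 74.5% for late losses and 34.9% for gains from 4 h. Counting any overlap, 99 late gains (40.9%) touched a 6211 region, against 79.8% of all regions of at least 5 CPM. Matched late gains had a median of 9.74 CPM in DMSO of 6086 and a width of 419.5 bp. The 152 others had 5.45 CPM and 315.5 bp. The share with an overlap was higher at higher DMSO levels. Any overlap was found for 3 of 95 late gains under 6 CPM in DMSO, or 3.16%, against 21.9% of other flat regions. In this band the late gains had a median of 4.84 CPM in DMSO and the other flat regions 5.45 CPM, because the minimum of 5 CPM is on the mean of 8 libraries, so the levels were unequal. From 6 to 10 CPM it was found for 44 of 92, or 47.8%, against 62.7%. At 10 CPM and above it was found for 52 of 55, or 94.5%, against 98.0%. By median, the matched readings in 6211 are therefore about stronger late gains than the unmatched ones. They leave out some of the strongest and widest. Late gains wider than 802 bp could not match a 6211 region of the usual 401 bp. The strongest late gain, chr20:35860335-35861163, and the 3 widest had no match.

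In these 90 regions no early change was called at 0.5 or 1 h with all libraries, and at 1 h this depended on which libraries were in the fit. At 0.5 h the median log2 change, from edgeR's fit over all 6211 regions, was 0.00 with a range of -0.34 to 0.36, and 45 of 90 were above 0. edgeR called 0 higher and 0 lower at an adjusted p under 0.05, against 0% and 0.00735% of all 40844 regions, DESeq2 called 0, and 3 (3.33%) had an unadjusted p under 0.05, against 6.65% of all matched regions of at least 5 CPM. At 1 h the median was -0.01 with a range of -0.41 to 0.38, and 43 were above 0. edgeR called 0 higher and 0 lower, against 0.22% and 2.47% of all regions, DESeq2 called 0, and 13 (14.4%) had an unadjusted p under 0.05, against 16.6%. At 2 h the median was 0.06 with a range of -0.40 to 0.43. Above 0 were 57 (63.3%), against 53.5% of all matched regions of at least 5 CPM. One was called higher and 0 lower, against 1.97% and 4.92% of all regions, and 8 (8.89%) had an unadjusted p under 0.05, against 20.1%. The median standard error of a single region was 0.14, so a change of the size that the rule allowed at 2 h in 6086 would not have been detectable in 1 region here. At 2 h, 92.2% of the matched late gains lay within 0.3 of 0, against 92.1% of the other matched regions flat at 2 and 4 h, 89.4% of late losses and 84.3% of all 29446 matched regions of at least 5 CPM. The late gains' medians in single libraries, against the DMSO mean, were 0.0067 and -0.0020 at 0.5 h and 0.0043 and 0.0133 at 1 h. At 2 h they were 0.0417 and 0.105, against 0.0365 and 0.0409 for the other matched regions flat at 2 and 4 h. In the DMSO libraries the late gains had -0.0095 and 0.0095.

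The region called at 2 h was chr17:45286079-45286755, which met chr17:45286076-45286476 in 6211. In 6211 it had 40.2 and 42.7 CPM at 2 h, against 29.6 and 31.5 CPM in DMSO, a log2 change of 0.43 ± 0.09 (SE) with an adjusted p of 0.00441 in edgeR's quasi-likelihood test. Its changes at 0.5 and 1 h were 0.36 and 0.25, with adjusted p of 0.235 and 0.154 by edgeR. DESeq2 gave an adjusted p of 0.0247 at 2 h. Without DMSO library A the edgeR value was 0.067 and without 2 h library B 0.073, neither past the threshold. In 6086 this region had 30.8 and 33.2 CPM in DMSO, 34.1 and 36.9 CPM at 2 h, 36.1 and 33.8 CPM at 4 h and 52.3 and 51.3 CPM at 24 h. Its 2 h change there, 0.148, was just under the limit of 0.15. Next highest at 2 h in 6211 was chr1:44230321-44230618, with 0.40 and an adjusted p of 0.20 by edgeR. The lowest were chr6:114728664-114729232 with -0.40 and chr6:117894097-117894478 with -0.31, at adjusted p of 0.11 and 0.34 by edgeR. In 6086, chr6:114728664-114729232 had 17.2 and 15.6 CPM at 24 h, against 10.2 and 9.53 CPM in DMSO. Of the largest steps at 24 h, chr20:4853939-4854532 had changes of -0.25, -0.21 and -0.09 at 0.5, 1 and 2 h in 6211, and chr2:39957342-39958108 had 0.00, 0.11 and 0.20, none of them called. Read by any overlap, the strongest late gain, chr20:35860335-35861163, had -0.13, -0.08 and -0.16 at these times. chr17:17288572-17289774 had 0.23, 0.27 and 0.25, chr2:42981130-42982014 had 0.05, 0.11 and 0.05, and chr7:25765738-25766777 had 0.05, 0.06 and 0.11. chr2:1735175-1736224 had -0.06, -0.09 and -0.16. None of these changes was called.

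Regions that had already gained at 4 h in 6086 had higher medians in 6211 than the late gains. The 52 of them that were matched had median log2 changes of 0.11, 0.15 and 0.30 at 0.5, 1 and 2 h, beside 0.00, -0.01 and 0.06 for the late gains. At 2 h 9 of the 52 (17.3%) were called higher, against 1.97% of all regions. Library by library, the median of the gains from 4 h minus that of the late gains was 0.0955 and 0.152 at 0.5 h, 0.155 and 0.154 at 1 h and 0.229 and 0.246 at 2 h, against 0.0277 and -0.0277 in the DMSO libraries. Every treated library lay above both DMSO libraries in this difference. The exact permutation test over libraries gave a two-sided p of 0.333 at each of the 3 times, the smallest that 2 libraries against 2 can give, so the difference cannot pass a threshold in this design. Matched late losses had medians of -0.01, 0.02 and 0.06 at the same times, near those of the late gains.

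**Figure D5:**
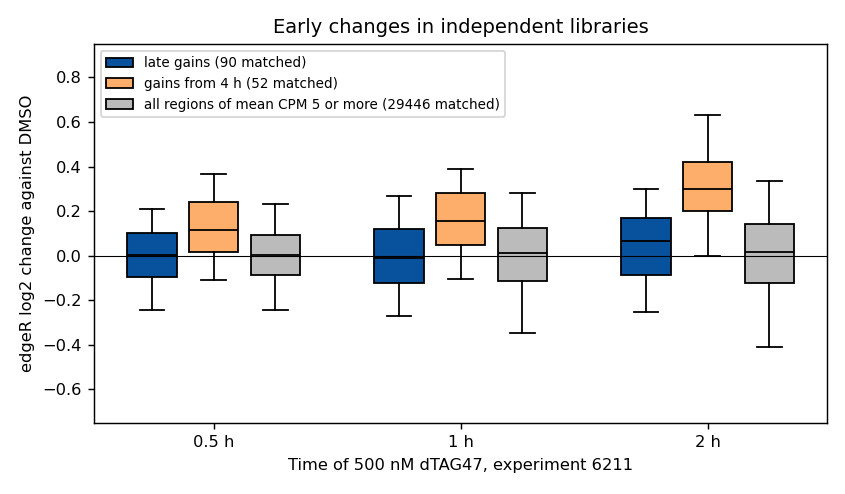
Log2 change against DMSO in experiment 6211 at 0.5, 1 and 2 h for the 90 matched late gains, the 52 matched gains from 4 h and the 29446 matched regions of at least 5 CPM. Boxes show quartiles and medians and whiskers the 5th and 95th percentiles over regions. The late gains stay around 0, with a median of 0.06 at 2 h, while the gains from 4 h reach 0.30.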

How the data were processed

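ATAC-seq was made with the Active Motif kit, per the labels' protocols. Tools in the submitters' processing notes are Genrich 0.6.1, Trimmomatic 0.32, Bowtie2, deepTools, DESeq2 and DiffBind, and the builds are hg19 and dm3, with no role or order. The sources used here do not give how reads were shifted, duplicates removed and peaks merged. Values in the 2 deposited count tables are raw read counts. Of the 6 deposited comparison tables, only the log2 fold changes and adjusted p-values of 24 h in 6086 were used, as the authors' values. 96 per-library columns in them, which repeat counts or hold normalised counts, were not used. Each column's group was read from the treatment and time in its name. Their letters A and B could not be tied to the labels' replicate numbers.

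Late gains were found in Python 3.11.15 (pandas 2.3.3, NumPy 2.4.6). The quasi-likelihood test of edgeR 4.0.16 (R 4.3.3) used TMM, filterByExpr and Benjamini-Hochberg adjustment over all regions, with 1 fit per experiment on its 8 libraries (4 residual degrees of freedom). Its p-values measure the spread between these libraries only, and that spread may be technical. Tables were matched with bedtools 2.31.1. The scripts were tested on simulated data. Levels of the 2 tables are not comparable, as their regions differ in width. A uniform change over all regions would not be seen.

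The rule, the comparison sets and the tests were chosen with earlier results of these data known. Regions named are the 10 largest 24 h changes, the 5 highest mean CPM, the 3 widest, the 3 on either side of the limit, the 2 highest and 2 lowest 2 h changes in 6211, those called there, and those in the densest 1 Mb windows. Direct neighbours, and which of these are given in full, were chosen after their values were seen. Planned gene lists, promoter distances and motifs were not analysed, for want of an hg19 reference here. Alternatives were other scalings, pseudocounts, CPM minimums, overlaps, DESeq2 1.42.0, a loess offset (limma 3.58.1), a letter block and leaving out each library.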

Additional observations from a re-analysis of the deposited data

How the results depend on the processing

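All alternatives were run. The count of 242 late gains became 404 with no minimum CPM and 78 with a minimum of 10 CPM. It was 222 with TMM, 229 with median-ratio size factors and 242 with the loess offset, sharing 198, 206 and 211 regions with the 242, and 167 and 265 with 2 and 0.1 added (126 and 221 shared). Without one library it was 211 to 266, and on leaving out DMSO library A or B 139 of 213 or 138 of 218 were shared. TMM moved the median 24 h change of all regions of at least 5 CPM to -0.01, against 0.02. Over 24 named late gains, 120 alternative values of the 24 h change ranged from 0.54 to 1.35, and 3 fell below the limit of 0.6. The late gains just inside the limit were not among these 24.

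Calls at 24 h in 6086 numbered 18353 (7742 higher, 10611 lower) with edgeR and 11323 (4198 higher, 7125 lower) with DESeq2, 17836 with the letter block and 14216 to 16382 without one library. In 6211, 3 regions were called at 0.5 h, 10 with only the 2 groups in the fit, 11 with the letter block and 0 to 214 without one library (214 without DMSO library B). At 1 h 1100 were called (90 higher, 1010 lower), 366 with DESeq2 (6 higher, 360 lower), 628 with only the 2 groups (12 higher, 616 lower), 1272 with the block and 174 to 2559 without one library (332 and 2559 on leaving out DMSO library A or B, 174 on leaving out 1 h library B). At 2 h 2815 were called (806 higher, 2009 lower), 1341 with DESeq2 (155 higher, 1186 lower), 3165 with the block and 1228 to 3356 without one library (1487 on leaving out DMSO library A).

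For the matched late gains, leaving out one library gave medians of -0.0153 to 0.0252 at 0.5 h, -0.0159 to 0.000946 at 1 h and 0.0248 to 0.0918 at 2 h. The number called at 1 and 2 h depended on which library was left out, as did the number called over all regions. With any overlap, 2 were called at 2 h. The letters do not pair the libraries: correlations of deviations ran from -0.14 to 0.15 in 6086 and -0.05 to 0.21 in 6211. A lone library is assumed to vary like the other groups. The cause of these changes was not tested, beyond the fewer libraries or regions of an alternative. Depth limits precision at weak sites, with as few as 68 reads in a library.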
